A study of Homo sapiens with 12 samples.

Results

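The ALDH3 family of aldehyde dehydrogenases was followed in MDA-MB-468 cells, a line of triple-negative breast cancer, after 10 days of DOT1L inhibition. The family was taken as the genes ALDH3A1, ALDH3A2, ALDH3B1 and ALDH3B2, matched by Ensembl identifier to the deposited count table; each symbol had a single row, giving 4 of 57783 genes. All 4 had enough counts to be tested. The study compared 4 groups of 3 libraries each: EPZ5676 ALDH1+, DMSO ALDH1+, EPZ5676 ALDH1- and DMSO ALDH1-. EPZ5676, also called pinometostat, blocks the histone methyltransferase DOT1L and was given at 0.5 µM, and control cells received the solvent DMSO for the same time. Both cultures were then sorted into cells positive and negative for ALDH1 and each fraction was sequenced in bulk, so all groups share a single parental line and a sort, and none is an unsorted culture.

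ALDH3 enzymes use NAD or NADP to turn aldehydes into carboxylic acids. Their substrates are mainly fatty and aromatic aldehydes, which arise from lipid breakdown and lipid peroxidation, whereas ALDH1 enzymes are best known for oxidizing retinal. ALDH3A1 is a soluble enzyme abundant in the cornea, where it removes reactive aldehydes, and it can be induced through the aryl hydrocarbon receptor. ALDH3A2 is the membrane-bound fatty aldehyde dehydrogenase of the endoplasmic reticulum and peroxisomes, whose loss causes Sjögren-Larsson syndrome, a disease of skin and nerve. ALDH3B1 is a membrane-associated enzyme for medium- and long-chain aldehydes, and ALDH3B2 is its closest relative; in mouse, ALDH3B2 protein sits on lipid droplets. DOT1L methylates histone H3 within the bodies of transcribed genes.

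The libraries held 24348594 to 80195050 counts. Markers of the line were present in all groups: mean levels of EGFR, amplified in this line, were 5950 to 9850 CPM (counts scaled to a common library size), and those of KRT5 were 2090 to 2550 CPM. Of the receptors that define triple-negative tumours, PGR was at 0 to 0.0119 CPM and ESR1 at 7.39 to 10.3 CPM, while ERBB2 was at 37.6 to 65.0 CPM. Libraries with the same replicate number deviated together, and those numbered 3 lay lowest within each treatment on the first principal component. In EPZ5676 cells they lay apart, at 26.8 and 27.3 against 40.5 to 42.5 for the other EPZ5676 libraries. In DMSO cells they were at -47.4 and -39.1, against -37.6 to -26.3 for the other DMSO libraries, and -39.1 was close to -37.6. ALDH1A1 and ALDH1A3, transcripts of the sorted class, were not called between the fractions by an edgeR test that did not pair libraries by replicate number. ALDH1A1 averaged 33.1 ± 5.21 CPM in DMSO ALDH1+ and 25.3 ± 2.94 CPM in DMSO ALDH1- cells (SD, n = 3 each; edgeR adjusted p = 0.2), and ALDH1A3 averaged 1640 ± 202 CPM and 1370 ± 9.34 CPM in the same groups (edgeR adjusted p = 0.17). In EPZ5676 cells ALDH1A1 averaged 11.8 ± 2.09 CPM in ALDH1+ and 12 ± 1.76 CPM in ALDH1- cells (edgeR adjusted p = 0.98), and ALDH1A3 1950 ± 123 and 1450 ± 54.4 CPM (log2 fold change 0.43, SE 0.08, edgeR adjusted p = 0.16).

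EPZ5676 changed 3 of the 4 family members in each sorted population, each in the same direction in both. ALDH3B2 and ALDH3A1 fell and ALDH3B1 rose, while ALDH3A2 was not called in either. In ALDH1+ cells 31.5% of the 16327 genes tested were called at an adjusted p below 0.05, and in ALDH1- cells 22.6%. Higher calls made up 17.8% of genes in ALDH1+ and 13.6% in ALDH1- cells, and lower calls 13.7% and 9.04%. The libraries of the compared groups did not overlap for 3 of 4 members in each population, against 41.4% of all genes tested in ALDH1+ and 39.1% in ALDH1- cells. In bulk RNA, fewer cells that express a gene and less RNA per cell cannot be told apart.

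**Figure D1:**
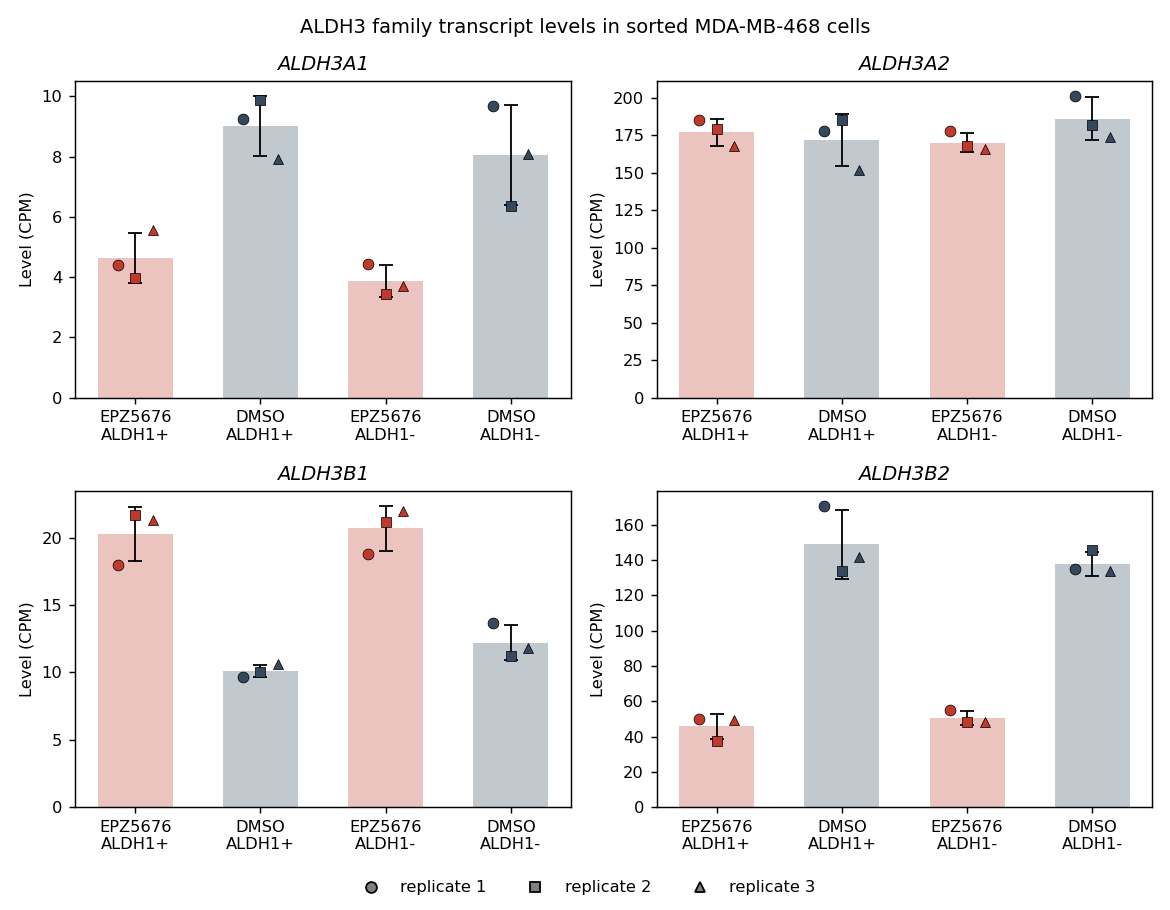
Level of each ALDH3 gene in CPM (y axis, from 0) in each of the 12 libraries, by group. Bars are means of 3 libraries, error bars are SD, and symbols mark the replicate number; ALDH3B2 lay between 37.3 and 54.8 CPM in EPZ5676 libraries, below every DMSO library.

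ALDH3B2 (ENSG00000132746.10) showed the largest change of the 4 in both populations. It stood at 50.2, 37.3 and 49.6 CPM in EPZ5676 ALDH1+ replicates 1, 2 and 3, against 171, 134 and 142 CPM in DMSO ALDH1+ cells. The highest EPZ5676 library was below the lowest DMSO library. The means were 45.7 ± 7.28 CPM and 149 ± 19.7 CPM (SD, n = 3), and edgeR put the log2 fold change at -1.71 (SE 0.12, adjusted p = 1.3e-07). In ALDH1- cells the values were 54.8, 48.3 and 48.0 CPM with EPZ5676, against 135, 146 and 134 CPM with DMSO. Again no library overlapped, and the log2 fold change was -1.46 (SE 0.12, edgeR adjusted p = 9.9e-07). Levels thus fell to 0.306 and 0.364 of the DMSO level in ALDH1+ and ALDH1- cells. Taken replicate by replicate, the log2 difference was -1.77, -1.84 and -1.51 in ALDH1+ cells and -1.30, -1.60 and -1.48 in ALDH1- cells.

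ALDH3A1 (ENSG00000108602.13) was the least abundant member in raw counts, with 93 to 447 reads per library. It stood at 4.39, 3.96 and 5.56 CPM in EPZ5676 ALDH1+ cells, against 9.24, 9.88 and 7.91 CPM in DMSO ALDH1+ cells. In ALDH1- cells it stood at 4.45, 3.44 and 3.69 CPM with EPZ5676, against 9.68, 6.36 and 8.10 CPM with DMSO. The groups did not overlap in either population, with log2 fold changes of -0.97 (SE 0.17, edgeR adjusted p = 5.4e-04) and -1.06 (SE 0.18, edgeR adjusted p = 5.5e-04). The smallest difference within a pair was -0.50 in replicate 3 of ALDH1+ cells, where the EPZ5676 library was the highest and the DMSO library the lowest of its group; the other 5 pairs lay between -1.31 and -0.88.

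ALDH3B1 (ENSG00000006534.11) moved the other way. It stood at 18.0, 21.7 and 21.3 CPM in EPZ5676 ALDH1+ cells, against 9.64, 10.0 and 10.6 CPM in DMSO ALDH1+ cells. In ALDH1- cells it stood at 18.8, 21.2 and 22.0 CPM with EPZ5676, against 13.7, 11.2 and 11.8 CPM with DMSO. All EPZ5676 libraries were above all DMSO libraries. The log2 fold change was 1.01 in ALDH1+ cells (SE 0.11, edgeR adjusted p = 5.3e-06) and 0.76 in ALDH1- cells (SE 0.11, edgeR adjusted p = 1.2e-04), or 2.02-fold and 1.69-fold. Within pairs the log2 difference was 0.90, 1.12 and 1.00 in ALDH1+ cells, and 0.45, 0.92 and 0.89 in ALDH1- cells, where DMSO replicate 1 was the highest of its group.

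Some markers of other cell types rose along with ALDH3B1. Of 8 listed leukocyte, stromal and endothelial markers, 7 had a row, each with counts in every group. Among the 6 tested, 5 rose and 1, CD14, fell in ALDH1+ cells, and 4 rose and 0 fell in ALDH1- cells, against 31.5% and 22.6% of all genes called in either direction. Without DMSO ALDH1+ replicate 3 the calls of PTPRC (edgeR adjusted p = 0.1), ITGAM (0.066) and VWF (0.057) in ALDH1+ cells were lost, which left 2 rises. In ALDH1- cells the call of CSF1R was lost under 3 of 21 alternatives, with edgeR adjusted p up to 0.092. The calls of PTPRC, ITGAM and COL1A1 in ALDH1- cells were kept under every alternative. The summed level of the 7 markers was 36.4 to 37.5 CPM in EPZ5676 ALDH1+ libraries, against 18.0 to 24.0 CPM in DMSO ALDH1+ libraries. It was 32.8 to 43.0 CPM in EPZ5676 ALDH1- libraries, against 20.9 to 26.8 CPM in DMSO ALDH1- libraries. COL1A1 was the largest part of this sum. It averaged 23.2 ± 2.2 CPM in EPZ5676 ALDH1+ and 11.6 ± 2.61 CPM in DMSO ALDH1+ cells, and 19.4 ± 1.16 and 11.8 ± 1.49 CPM in EPZ5676 and DMSO ALDH1- cells. The pan-leukocyte antigen PTPRC stayed at or below 0.925 CPM in every library. The part of these markers in the rise of ALDH3B1 was not tested.

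ALDH3A2 (ENSG00000072210.14) had 4176 to 14316 reads per library, so counting error on it was small, and it was not called in any comparison. It stood at 185, 179 and 168 CPM in EPZ5676 ALDH1+ cells, against 178, 185 and 152 CPM in DMSO ALDH1+ cells. It stood at 178, 168 and 166 CPM in EPZ5676 ALDH1- cells, against 201, 182 and 174 CPM in DMSO ALDH1- cells. The groups overlapped in both populations. The log2 fold change of 0.05 in ALDH1+ cells had a 95% interval from -0.12 to 0.22 (edgeR adjusted p = 0.69), and that of -0.13 in ALDH1- cells one from -0.30 to 0.05 (edgeR adjusted p = 0.3). Within pairs the log2 difference was 0.06, -0.04 and 0.14 in ALDH1+ cells. The ALDH1- pairs gave -0.18, -0.12 and -0.07, below 0 in all 3 pairs, with an edgeR adjusted p of 0.12 under the replicate block. Without DMSO ALDH1+ replicate 3, its lowest library, the value in ALDH1+ cells changed sign, to -0.04.

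**Figure D2:**
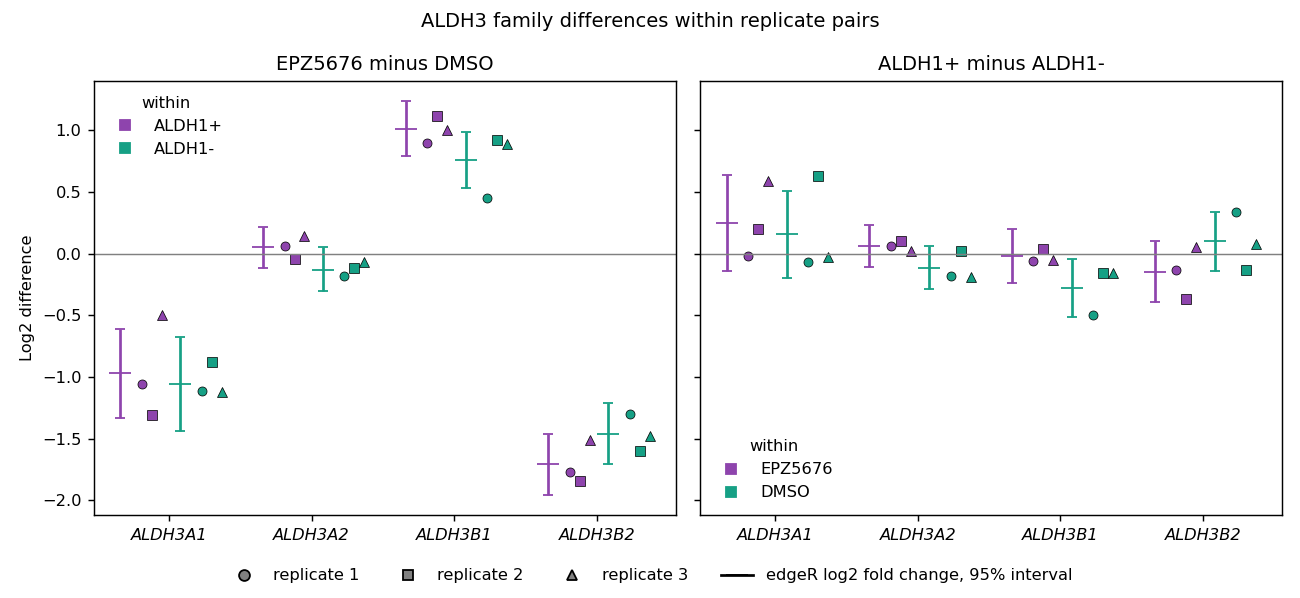
Log2 difference (y axis) of each ALDH3 gene within each replicate pair (symbols), with the edgeR log2 fold change and its 95% interval (bars), for EPZ5676 minus DMSO at left and ALDH1+ minus ALDH1- at right. All 6 treatment pairs lay below 0 for ALDH3A1 and ALDH3B2 and above 0 for ALDH3B1, and no difference between the fractions was called.

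The distance between relatives was also compared within libraries, where scaling nearly cancels out. On the log2 CPM scale ALDH3B1 minus ALDH3B2 was -1.16 ± 0.35 in EPZ5676 ALDH1+ cells and -3.87 ± 0.23 in DMSO ALDH1+ cells (SD, n = 3 each), a shift of 2.71. In ALDH1- cells it was -1.28 ± 0.23 with EPZ5676 and -3.50 ± 0.20 with DMSO, a shift of 2.21. ALDH3A1 minus ALDH3A2 was -5.25 ± 0.31 in EPZ5676 ALDH1+ cells and -4.24 ± 0.02 in DMSO ALDH1+ cells, and -5.45 ± 0.14 and -4.54 ± 0.25 in EPZ5676 and DMSO ALDH1- cells. The 3 EPZ5676 values did not overlap the 3 DMSO values in any of these 4 tests. Each had a two-sided exact permutation p = 0.1, the smallest that 3 against 3 libraries can give. For ALDH3B1 minus ALDH3B2 this outcome was fixed by the levels above, since both genes had no overlap, in opposite directions. The shift of ALDH3A1 minus ALDH3A2 mostly restates the fall of ALDH3A1, so these tests add no separate evidence.

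Per length of exon, ALDH3B2 made up the largest part of ALDH3 transcripts in DMSO cells and ALDH3A2 in EPZ5676 cells. Dividing CPM by merged exon length, ALDH3B2 held 30.7% ± 3.74 of the family's summed level in EPZ5676 ALDH1+ cells and 60.1% ± 3.72 in DMSO ALDH1+ cells (SD, n = 3 each). In ALDH1- cells it held 33.8% ± 1.04 with EPZ5676 and 56.7% ± 2.63 with DMSO. The share of ALDH3A2 was 60.0% ± 3.61 in EPZ5676 ALDH1+ cells and 34.9% ± 3.33 in DMSO ALDH1+ cells, although its own level was not called. ALDH3B1 held 6.73% ± 0.955 and 2.01% ± 0.262 in the same groups, and ALDH3A1 2.58% ± 0.444 and 3.02% ± 0.34. The summed level was 45.8 ± 2.22 CPM per kb in EPZ5676 ALDH1+ cells and 76.4 ± 6.96 in DMSO ALDH1+ cells, and 46.1 ± 2.07 and 75.5 ± 2.78 CPM per kb in EPZ5676 and DMSO ALDH1- cells. Exon lengths, from 3235 bases for ALDH3B2 to 6626 for ALDH3B1, merge all annotated isoforms, and which isoforms these cells use was not measured. The lead of ALDH3B2 in DMSO cells depends on this division, since in CPM ALDH3A2 had the highest mean in every group. In DMSO ALDH1+ cells ALDH3A2 averaged 172 ± 17.3 CPM and ALDH3B2 149 ± 19.7 CPM. In DMSO ALDH1- cells they averaged 186 ± 14.1 and 138 ± 6.87 CPM.

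**Figure D3:**
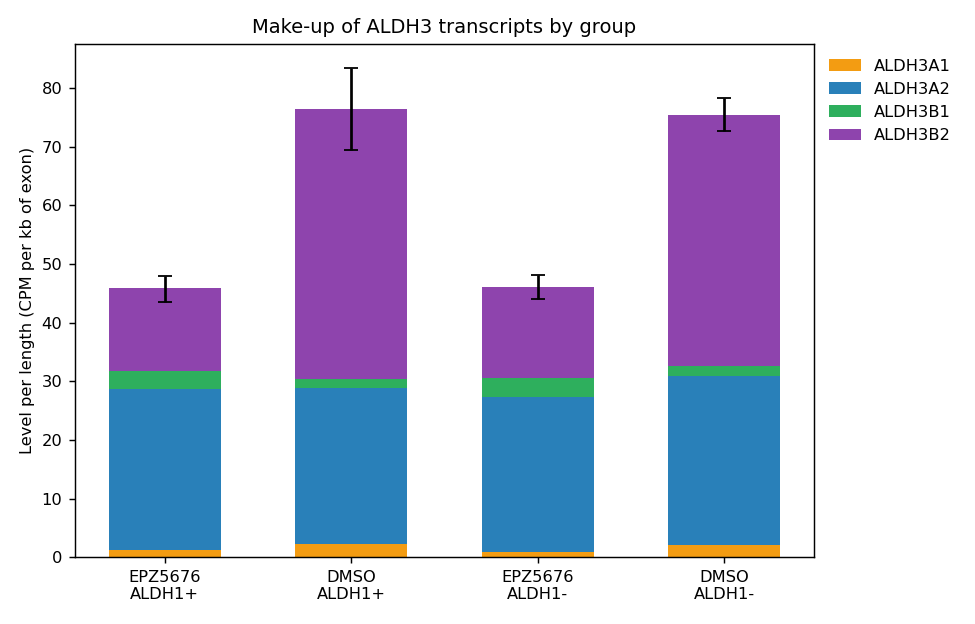
Mean level per length of each ALDH3 gene (y axis, CPM per kb of merged exon), stacked by group, with the SD of the sum over 3 libraries as error bar. The sum was 45.8 and 46.1 CPM per kb in EPZ5676 groups, against 76.4 and 75.5 in DMSO groups, and most of the difference was ALDH3B2.

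Among 18 aldehyde dehydrogenases tested, ALDH1A3 had the highest level per length in every group. ALDH3B2 ranked 5 in both EPZ5676 groups, at 14.1 ± 2.25 CPM per kb in ALDH1+ and 15.6 ± 1.19 in ALDH1- cells, against rank 2 in both DMSO groups, at 46.0 ± 6.08 and 42.8 ± 2.12 CPM per kb. ALDH3A2, at 26.4 to 28.8 CPM per kb, ranked 3 with EPZ5676 and 4 or 5 with DMSO. In DMSO ALDH1- cells its neighbours in the order, ALDH18A1 at 29.8 ± 0.24 and ALDH9A1 at 27.9 ± 0.945 CPM per kb, lay within its own spread of 28.8 ± 2.19. ALDH3B1 and ALDH3A1 ranked between 13 and 15; ALDH3B1 was the higher of the pair with EPZ5676, at 3.07 ± 0.303 against 1.18 ± 0.212 CPM per kb in ALDH1+ and 3.12 ± 0.256 against 0.984 ± 0.134 in ALDH1- cells, while in DMSO ALDH1+ cells the values were 1.52 ± 0.0706 and 2.30 ± 0.256 CPM per kb. In DMSO ALDH1- cells they were 1.85 ± 0.195 and 2.05 ± 0.424 CPM per kb, within their spread. These ranks depend on the merged exon lengths. In CPM, ALDH3B1 had a higher mean than ALDH3A1 in every group. The means were 10.1 ± 0.468 and 9.01 ± 1.00 CPM in DMSO ALDH1+ cells, and 12.2 ± 1.29 and 8.05 ± 1.66 CPM in DMSO ALDH1- cells.

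None of the 4 genes was called between the sorted fractions. In DMSO cells, ALDH1+ against ALDH1-, the log2 fold change was 0.16 for ALDH3A1 (95% interval -0.20 to 0.51), -0.12 for ALDH3A2 (-0.29 to 0.06), -0.28 for ALDH3B1 (-0.51 to -0.04) and 0.10 for ALDH3B2 (-0.14 to 0.34). The edgeR adjusted p was 0.65, 0.47, 0.22 and 0.66 in that order. ALDH3B1 was lower in ALDH1+ than in ALDH1- cells in all 3 DMSO pairs, by -0.50, -0.16 and -0.16 on the log2 scale, and its libraries did not overlap, as was so for 23.1% of all genes tested. Its unadjusted p was 0.023, and its edgeR adjusted p was 0.092 with the replicate number as a block. In EPZ5676 cells the fold changes were 0.25 (-0.14 to 0.64), 0.06 (-0.11 to 0.23), -0.02 (-0.24 to 0.20) and -0.15 (-0.39 to 0.10) for ALDH3A1, ALDH3A2, ALDH3B1 and ALDH3B2, with edgeR adjusted p from 0.87 to 0.98, and all 4 genes overlapped between the fractions, where 9.57% of all genes tested did not.

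Few genes of any kind were called between the fractions by this test: 0% in DMSO and 0.0184% in EPZ5676 cells. At an unadjusted p below 0.05 edgeR had 2904 genes in DMSO and 1032 in EPZ5676 cells. In DMSO cells 0 were called by limma-voom, 283 by DESeq2 and 1384 by edgeR with the replicate block; none of these tests called an ALDH3 gene between the fractions.

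The difference between both treatment effects was 0.09 for ALDH3A1 (95% interval -0.43 to 0.62), 0.17 for ALDH3A2 (-0.07 to 0.42), 0.26 for ALDH3B1 (-0.06 to 0.58) and -0.25 for ALDH3B2 (-0.59 to 0.09), as the log2 effect in ALDH1+ minus that in ALDH1- cells. Each had an edgeR adjusted p of 0.98. The intervals allow the effects in the populations to differ by up to 0.62 on the log2 scale. The interaction called 0% of genes, with 597 at an unadjusted p below 0.05 and 0 by DESeq2 or limma-voom.

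By group, ALDH3B2 ran, from high to low, DMSO ALDH1+, DMSO ALDH1-, EPZ5676 ALDH1-, EPZ5676 ALDH1+, and the neighbours within a treatment did not differ beyond their spread. ALDH3A1 had the same split, with 9.01 ± 1.00 and 8.05 ± 1.66 CPM in DMSO ALDH1+ and ALDH1- cells above 4.64 ± 0.829 and 3.86 ± 0.525 CPM in EPZ5676 ALDH1+ and ALDH1- cells. ALDH3B1 ran from 20.7 ± 1.70 and 20.3 ± 2.01 CPM in EPZ5676 ALDH1- and ALDH1+ cells to 12.2 ± 1.29 and 10.1 ± 0.468 CPM in DMSO ALDH1- and ALDH1+ cells. ALDH3A2 had group means between 170 and 186 CPM, and none of the steps in its order exceeded the spread.

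Members of the family lie in pairs on the chromosomes, ALDH3A2 and ALDH3A1 on chromosome 17 and ALDH3B2 and ALDH3B1 on chromosome 11, by the RefSeq table of build GRCh38.p14. SLC47A2, a proton-coupled exporter of organic cations, is the gene measured between ALDH3A2 and ALDH3A1, and it fell. It had 7, 21 and 16 reads in EPZ5676 ALDH1+ replicates 1, 2 and 3, against 18, 20 and 40 reads in DMSO ALDH1+ cells, or 0.351 ± 0.163 CPM and 0.720 ± 0.0716 CPM (log2 fold change -1.11, SE 0.31, edgeR adjusted p = 0.013). In ALDH1- cells it had 3, 9 and 6 reads with EPZ5676, against 29, 32 and 23 reads with DMSO (log2 fold change -2.13, SE 0.35, edgeR adjusted p = 4.8e-04). The CPM values did not overlap in either population, but these counts are low, and the call in ALDH1+ cells was lost without EPZ5676 ALDH1+ replicate 2 (edgeR adjusted p = 0.1). Beyond ALDH3A1, the autophagy kinase ULK2 rose by 0.44 in ALDH1+ cells (SE 0.07, edgeR adjusted p = 3.5e-04). In ALDH1- cells ULK2 had 0.19 (SE 0.07, edgeR adjusted p = 0.084), called with the replicate block (0.044) or without DMSO ALDH1+ replicate 3 (0.043). AKAP10, a kinase anchoring protein, had log2 fold changes of 0.02 and 0.04 in ALDH1+ and ALDH1- cells, with no call. On the side of ALDH3A2, RPS2P46 had -0.39 in ALDH1+ cells (SE 0.09, edgeR adjusted p = 0.0045). In ALDH1- cells RPS2P46 had -0.25 (SE 0.09, edgeR adjusted p = 0.058), called under 6 of 21 alternatives. SLC47A1, on the same side, was not called in either population by the main edgeR test. Among all genes tested, 31.5% were called in ALDH1+ and 22.6% in ALDH1- cells.

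On chromosome 11, ACY3, an aminoacylase gene next to ALDH3B2, fell on low counts. It had 5 to 12 reads per EPZ5676 ALDH1+ library, against 9 to 35 per DMSO ALDH1+ library, and a log2 fold change of -1.34 (SE 0.36, edgeR adjusted p = 0.011). In ALDH1- cells it had 8 to 12 reads with EPZ5676, against 17 to 28 with DMSO, and a log2 fold change of -1.02 (SE 0.34, edgeR adjusted p = 0.043). The call in ALDH1+ cells was lost without DMSO ALDH1+ replicate 3 (edgeR adjusted p = 0.088), EPZ5676 ALDH1+ replicate 2 (0.1) or all libraries numbered 3 (0.13), and that in ALDH1- cells under 10 of 20 alternatives, with adjusted p up to 0.15.

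UNC93B1, which carries Toll-like receptors to endosomes and lies next to ALDH3B1, stood at 97.2 to 105 CPM in EPZ5676 ALDH1+ cells, against 86.7 to 92.0 CPM in DMSO ALDH1+ cells. Its log2 fold change was 0.17 (SE 0.06, edgeR adjusted p = 0.052) in ALDH1+ and 0.12 (SE 0.06, edgeR adjusted p = 0.21) in ALDH1- cells; the value in ALDH1+ cells passed the threshold under 7 of 21 alternatives, among them the replicate block (edgeR adjusted p = 0.022). NDUFS8, a subunit of respiratory complex I on the other side of ALDH3B1, had log2 fold changes of -0.20 (SE 0.10, edgeR adjusted p = 0.14) and -0.11 (SE 0.10, edgeR adjusted p = 0.47) in ALDH1+ and ALDH1- cells. The value in ALDH1+ cells was called with the replicate block (edgeR adjusted p = 0.048) and that in ALDH1- cells without all libraries numbered 3 (0.049). NUDT8, RPL37P2, FAM86C2P and TCIRG1, also measured around this pair, were not called in either population by the main edgeR test. Whether position plays a part in any of these changes was not tested.

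**Figure D4:**
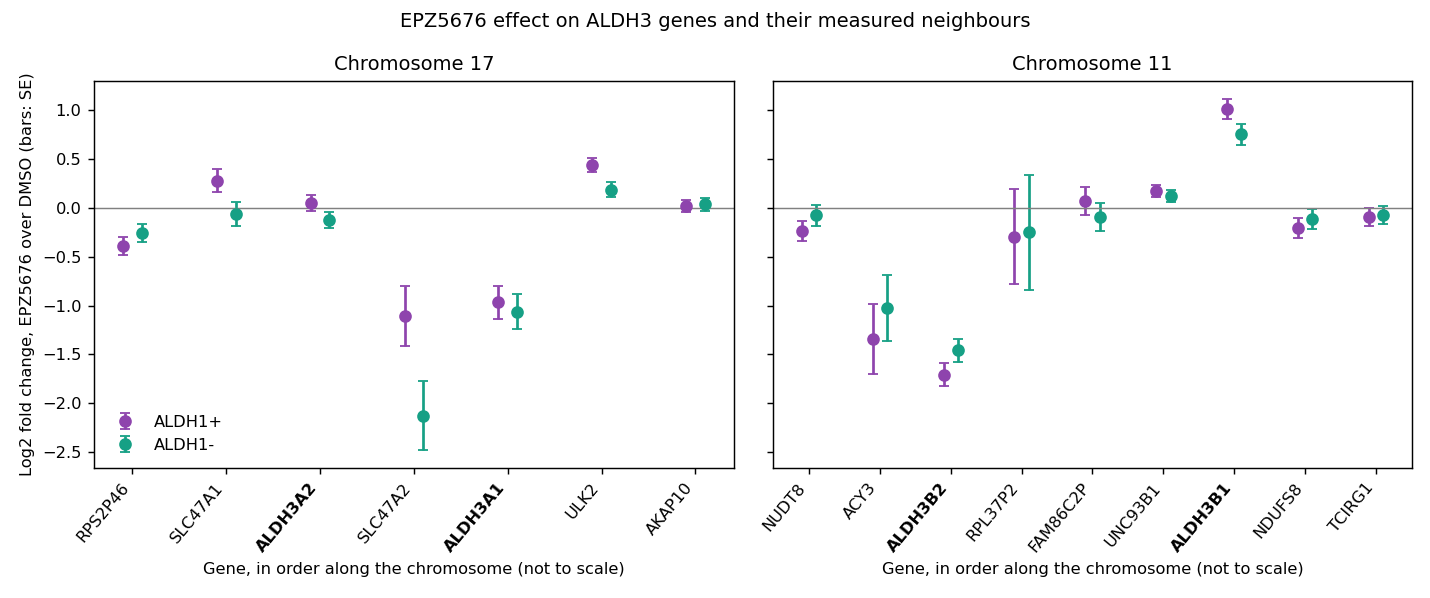
Log2 fold change of EPZ5676 over DMSO (y axis, bars are SE) for the ALDH3 genes (bold) and the measured genes around them, in order along chromosomes 17 and 11 and not to scale. ALDH3A1 lay at -0.97 and -1.06 and SLC47A2 beside it at -1.11 and -2.13, in ALDH1+ and ALDH1- cells; ALDH3B1 lay at 1.01 and 0.76, between UNC93B1 at 0.17 and 0.12 and NDUFS8 at -0.20 and -0.11.

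The sequence before the start sites is shown for ALDH3B1, which rose, and ALDH3A2, which was not called, the members matched in the RefSeq promoter table used here. Each window is the 250 bases before a RefSeq transcript start (build GRCh38.p14), and both genes have a pair of annotated starts; which start these cells use cannot be read from gene counts. Capitals mark matches on either strand to GCGTG, the core recognized by the aryl hydrocarbon receptor, to TGACNNNGC, the core of the antioxidant response element, or to CACGTG, an E-box.
ALDH3A2, upstream start (chr17:19647886-19648135, + strand): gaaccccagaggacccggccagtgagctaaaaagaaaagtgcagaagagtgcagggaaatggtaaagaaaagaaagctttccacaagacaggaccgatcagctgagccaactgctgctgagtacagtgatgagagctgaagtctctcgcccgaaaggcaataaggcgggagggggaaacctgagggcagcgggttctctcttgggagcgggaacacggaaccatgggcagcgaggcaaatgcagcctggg
ALDH3A2, downstream start (chr17:19648501-19648750, + strand): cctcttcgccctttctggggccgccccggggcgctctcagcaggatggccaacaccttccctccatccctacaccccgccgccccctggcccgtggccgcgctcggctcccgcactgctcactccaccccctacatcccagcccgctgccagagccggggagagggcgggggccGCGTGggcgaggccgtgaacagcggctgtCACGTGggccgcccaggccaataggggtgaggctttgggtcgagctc
ALDH3B1, upstream start (chr11:68008297-68008546, + strand): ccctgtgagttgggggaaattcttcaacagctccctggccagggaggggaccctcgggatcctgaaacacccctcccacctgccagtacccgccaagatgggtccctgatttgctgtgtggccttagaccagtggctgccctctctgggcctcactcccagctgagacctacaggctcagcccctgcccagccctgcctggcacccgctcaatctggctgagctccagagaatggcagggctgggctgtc
ALDH3B1, downstream start (chr11:68010077-68010326, + strand): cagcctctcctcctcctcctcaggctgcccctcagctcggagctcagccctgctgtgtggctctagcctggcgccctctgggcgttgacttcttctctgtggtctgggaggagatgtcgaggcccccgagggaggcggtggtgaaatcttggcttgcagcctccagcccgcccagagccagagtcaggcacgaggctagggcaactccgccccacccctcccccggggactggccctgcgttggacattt
The downstream ALDH3A2 window held GCGTG at -76 and CACGTG at -47, counted from the start. The other 3 windows held none of these letters. Among all 35116 windows of this length, 32.2% held GCGTG, 10.9% held TGACNNNGC and 6.34% held CACGTG. A match is a description of the sequence, and no binding was measured.

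Genes around the functions of the family were then described from lists. Of 14 other aldehyde dehydrogenases tested, 4 rose and 7 fell in ALDH1+ cells and 1 rose and 7 fell in ALDH1- cells, with median log2 fold changes of -0.21 and -0.23, against -0.01 and -0.02 over all genes. The calls made up 78.6% and 57.1% of the list in ALDH1+ and ALDH1- cells, against 31.5% and 22.6% of all genes. ALDH1A1 fell by 1.51 (SE 0.15) and 1.08 (SE 0.15) on the log2 scale in ALDH1+ and ALDH1- cells, and ALDH7A1, an enzyme of lysine breakdown, by 0.59 (SE 0.08) and 0.35 (SE 0.08). The mitochondrial folate enzyme ALDH1L2 rose by 0.87 in ALDH1+ cells (SE 0.19, edgeR adjusted p = 0.003) and had -0.15 in ALDH1- cells (SE 0.19, edgeR adjusted p = 0.62). The difference between these effects, 1.02 (SE 0.27), was not called (edgeR adjusted p = 0.98). ALDH1L2 averaged 49.1 ± 7.11 and 48.2 ± 6.89 CPM in EPZ5676 ALDH1+ and ALDH1- cells, against 27.1 ± 4.87 and 53.5 ± 16.6 CPM in DMSO ALDH1+ and ALDH1- cells. The number called in ALDH1+ cells was 7 in place of 11 without EPZ5676 ALDH1+ replicate 2; in ALDH1- cells it was 5 in place of 8 without DMSO ALDH1- replicate 2 or EPZ5676 ALDH1- replicate 1, and 3 without EPZ5676 ALDH1- replicate 2, and with no filter on low counts it was 5.

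Other enzymes that clear reactive aldehydes had 2 rises and 7 falls among 15 tested in ALDH1+ cells, and 1 rise and 3 falls in ALDH1- cells, with medians of -0.27 and -0.14. That was 60.0% of the list in ALDH1+ cells, against 31.5% of all genes, and 26.7% in ALDH1- cells, near the 22.6% of all genes. The aldo-keto reductase AKR1B10, which reduces retinal and lipid-derived aldehydes, averaged 11.1 ± 3.39 CPM in EPZ5676 ALDH1+ and 50.8 ± 8.65 CPM in DMSO ALDH1+ cells, a log2 fold change of -2.20 (SE 0.18, edgeR adjusted p = 4.8e-07), with -1.73 (SE 0.18) in ALDH1- cells. AKR1C2 fell by 0.86 (SE 0.17) and 0.80 (SE 0.18) in ALDH1+ and ALDH1- cells; it is nearly identical in sequence to other AKR1C genes, so its counts are uncertain. The carbonyl reductase CBR3 rose by 0.67 (SE 0.10) and 0.98 (SE 0.10). The number called in ALDH1+ cells was 5 in place of 9 without DMSO ALDH1+ replicate 3, without EPZ5676 ALDH1+ replicate 2, or without all libraries numbered 3.

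The aryl hydrocarbon receptor pathway, which can induce ALDH3A1, had 2 rises and 2 falls among 10 genes tested in each population, with medians of 0.20 and 0.07. The 40.0% called in both compares with 31.5% of all genes in ALDH1+ and 22.6% in ALDH1- cells. TIPARP, a target and repressor of the receptor, averaged 118 ± 20.3 CPM in EPZ5676 ALDH1+ and 42.1 ± 12.4 CPM in DMSO ALDH1+ cells (log2 fold change 1.49, SE 0.17), with 1.28 (SE 0.17) in ALDH1- cells. The targets NQO1 and CYP1B1 fell: NQO1 by 0.30 (SE 0.07) and 0.37 (SE 0.07) in ALDH1+ and ALDH1- cells, and CYP1B1 by 0.46 (SE 0.14) and 0.82 (SE 0.14). The CYP1B1 call in ALDH1+ cells was lost without DMSO ALDH1+ replicate 2 (edgeR adjusted p = 0.11) or EPZ5676 ALDH1+ replicate 2 (0.061). Of 12 genes of NRF2, the oxidative stress factor, and its targets, NQO1 among them, 3 rose and 2 fell in ALDH1+ cells and 1 rose and 2 fell in ALDH1- cells, with medians of 0.06 and 0.05. That was 41.7% of the list in ALDH1+ cells, against 31.5% of all genes, and 25% in ALDH1- cells, near the 22.6% of all genes. The cystine transporter SLC7A11 rose by 1.34 in ALDH1+ cells (SE 0.16) and by 0.59 in ALDH1- cells (SE 0.16, edgeR adjusted p = 0.014). Its call in ALDH1- cells was lost under 4 of 21 alternatives, with adjusted p up to 0.075. The number called in ALDH1+ cells was 3 in place of 5 without DMSO ALDH1+ replicate 1 or EPZ5676 ALDH1+ replicate 2.

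Around ALDH3A2, 5 of 16 genes of fatty aldehyde and sphingolipid breakdown rose and 3 fell in ALDH1+ cells, and 3 rose and 1 fell in ALDH1- cells, with a median of 0.09 in both. That was 8 of 16 in ALDH1+ cells, against 31.5% of all genes, and 25% in ALDH1- cells, near the 22.6% of all genes. SPHK1, which makes sphingosine 1-phosphate upstream of the fatty aldehyde that ALDH3A2 oxidizes, averaged 31.3 ± 8.17 CPM in EPZ5676 ALDH1+ and 14.6 ± 1.60 CPM in DMSO ALDH1+ cells (log2 fold change 1.10, SE 0.18), with 0.77 (SE 0.18) in ALDH1- cells. ACSL4, which activates long-chain fatty acids, rose by 0.66 (SE 0.08) and 0.79 (SE 0.08). The number called in ALDH1+ cells was 5 in place of 8 without DMSO ALDH1+ replicate 3 or EPZ5676 ALDH1+ replicate 2, or with only the groups compared. Of 13 lipid genes of the epidermal barrier, 7 were tested; 3 rose and 0 fell in ALDH1+ cells and 3 rose and 1 fell in ALDH1- cells, with medians of 0.93 and 0.62. Called in either direction were 42.9% and 57.1% of these 7 genes, against 31.5% and 22.6% of all genes. ELOVL4, which makes very long fatty acids, averaged 46.2 ± 6.72 CPM in EPZ5676 ALDH1+ and 17.3 ± 2.74 CPM in DMSO ALDH1+ cells (log2 fold change 1.42, SE 0.12), and the envelope crosslinker TGM1 rose by 0.94 (SE 0.14) and 0.62 (SE 0.15) in ALDH1+ and ALDH1- cells. The number called in ALDH1+ cells was 5 in place of 3 with the replicate block or with no filter, and in ALDH1- cells it was 2 in place of 4 without EPZ5676 ALDH1- replicate 2.

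**Figure D5:**
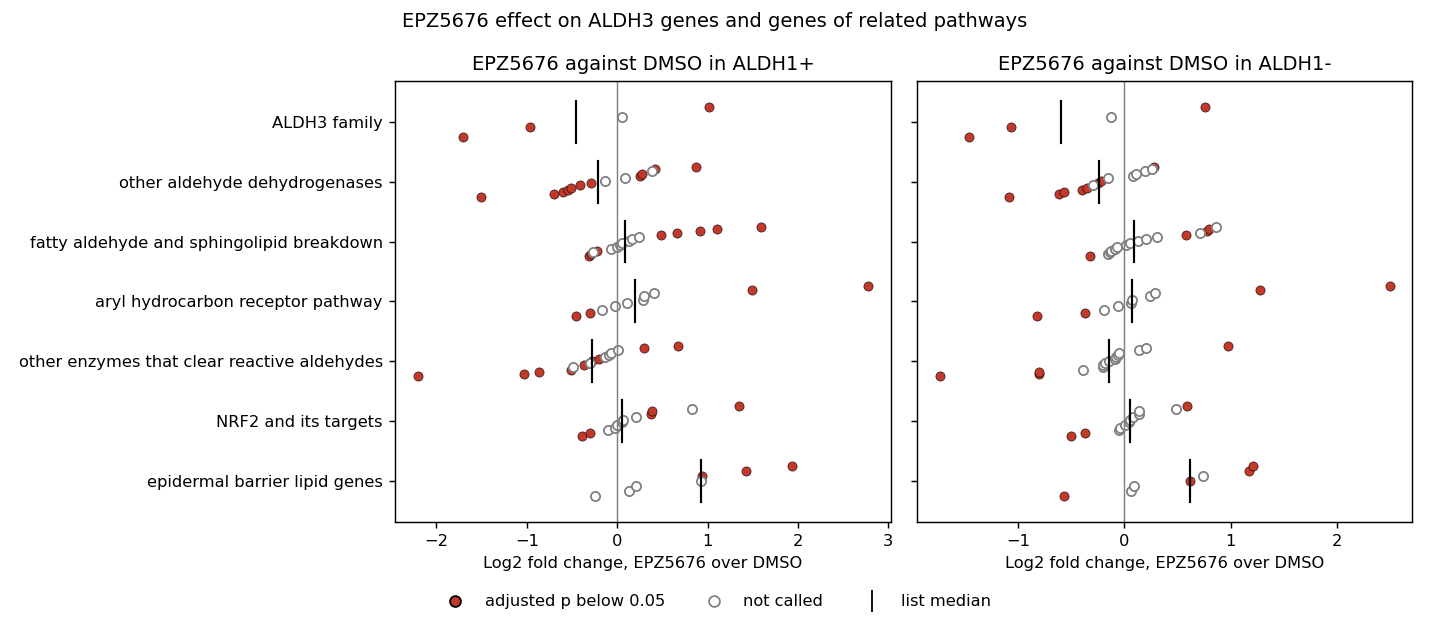
Log2 fold change of EPZ5676 over DMSO (x axis) for the 4 ALDH3 genes and the tested genes of 6 lists, in ALDH1+ cells at left and ALDH1- cells at right; filled points had an edgeR adjusted p below 0.05 and vertical bars are medians. The called ALDH3 genes lay from -1.71 to 1.01 in ALDH1+ cells, and the epidermal barrier lipid genes had medians of 0.93 and 0.62.

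The genes whose levels were most like each member over the 12 libraries were ranked by Pearson's r of log2 CPM, as a description; the libraries share the treatment contrast and fall into DMSO and EPZ5676 clusters, so r within the 6 libraries of each treatment stands beside the pooled value. For ALDH3A1 they included PGD (r = 0.96, with 0.73 among EPZ5676 and 0.80 among DMSO libraries) and ASMTL (0.95, 0.79 and 0.38). PGD, a dehydrogenase of the pentose phosphate pathway, fell by 0.52 (SE 0.06) and 0.58 (SE 0.06) on the log2 scale in ALDH1+ and ALDH1- cells. For ALDH3A2 they were TANGO2 (0.93, 0.79 and 0.97), COA7 (0.90, 0.83 and 0.92) and SGSM1 (0.90, 0.98 and 0.89), with no call for EPZ5676 against DMSO in either population.

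For ALDH3B1 they were HOXA11 (0.98, 0.24 and 0.98), ITGB2 (0.98, 0.64 and 0.83) and CD22 (0.98, 0.87 and 0.76). ITGB2, the beta chain of leukocyte integrins, averaged 19.1 ± 0.948 CPM in EPZ5676 ALDH1+ and 5.80 ± 0.545 CPM in DMSO ALDH1+ cells, and CD22, a lectin known from B cells, 14.1 ± 1.14 and 4.01 ± 0.342 CPM. For ALDH3B2 they were TP53I11 (0.99, 0.76 and 0.83), ENAH (0.99, 1.00 and 0.56) and ELAPOR1 (0.99, 0.84 and 0.67). TP53I11, a gene induced by p53, averaged 86.9 ± 7.47 CPM in EPZ5676 ALDH1+ and 243 ± 38.2 CPM in DMSO ALDH1+ cells, and ELAPOR1, an endosome-lysosome membrane protein, 4.69 ± 0.89 and 24.5 ± 6.23 CPM. Among the 4 members themselves, r within a treatment ranged from -0.74 for ALDH3A2 with ALDH3B1 in EPZ5676 libraries to 0.48 for the same genes in DMSO libraries.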

How the data were processed

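The authors deposited whole-number counts of reads for each gene and library, not normalized. Trimming with Trim Galore, alignment with STAR and build hg19 are named per the submitters' processing notes; the counter, its strandedness and the gene models were not given in the sources used here. Per the labels' protocols, total RNA went into a directional kit, and replicates are called biological. Without a stated strand setting, reads from overlapping antisense genes cannot be told apart; the rows of antisense genes at ALDH3A1 and ALDH3A2 held at most 1 read per library, and that at ALDH3B1 12 to 36.

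Columns named untreated and treated were matched to the DMSO and EPZ5676 labels. Identifiers without version were matched to symbols for 51959 of 57783 genes. Counts were filtered with filterByExpr, leaving 16327 genes, scaled by TMM (factors 0.975 to 1.021), and tested in edgeR 4.0.16 (R 4.3.3) by the quasi-likelihood F test with 1 term per group over all 12 libraries, with Benjamini-Hochberg adjustment over all genes tested. Each SE is the fold change over the square root of its F statistic, and intervals use that SE. CPM uses TMM-scaled library sizes; log2 CPM adds a prior count of 2. Merged exon lengths came from GENCODE annotation of GRCh38. The edgeR code was tested on simulated data.

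Replicate numbers recur in all groups. Over 13576 genes, deviations from group means correlated at 0.16 to 0.6 in all 18 pairs of libraries with the same number. Between other numbers they correlated at -0.61 to 0.18. Same-numbered libraries were therefore treated as pairs in the differences given replicate by replicate. The main edgeR test and the permutation tests did not use the pairing, and the replicate block is an alternative that does. Other alternatives were RLE scaling, total counts, no filter, 1 CPM in 3 libraries, DESeq2 1.42.0, limma-voom (limma 3.58.1), only the groups compared, leaving out each library, and, added after the data were seen, leaving out replicate 3 in every group and the alternatives for list counts.

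The members and lists were chosen with earlier results of these data known. Named besides the members were, per list, up to 4 called genes with the largest change in ALDH1+ cells, the nearest measured genes on the chromosome, and the 3 genes most like each member among those averaging 1 log2 CPM or more; ALDH1A1, ALDH1A3 and the markers served as checks. Some genes the rule allowed are not reported here.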

Additional observations from a re-analysis of the deposited data

How the results depend on the processing

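No ALDH3 gene gained or lost a call under any alternative that was run. Among the log2 fold changes of the 4 members, 406 alternative values kept their direction and side of the threshold and 10 changed sign. With 1 library left out, the log2 fold change of EPZ5676 against DMSO in ALDH1+ cells ranged from -1.11 to -0.85 for ALDH3A1, 0.96 to 1.09 for ALDH3B1 and -1.78 to -1.57 for ALDH3B2, and in ALDH1- cells from -1.20 to -0.90, 0.70 to 0.85 and -1.52 to -1.41. The replicate block gave -0.96, 1.02 and -1.71 in ALDH1+ cells and -1.05, 0.75 and -1.46 in ALDH1- cells, and changed no ALDH3 call.

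Those 10 were small and not called, and the cause was not tested. With 1 library left out they ranged from -0.04 to 0.11 for ALDH3A2 under EPZ5676 in ALDH1+ cells, from -0.01 to 0.18 for ALDH3B2 between the DMSO fractions, from -0.08 to 0.06 for ALDH3B1 between the EPZ5676 fractions, and from -0.07 to 0.24 for the ALDH3A1 interaction. Without replicate 3 in every group the ALDH3B1 value was 0 and the ALDH3A1 interaction -0.19.

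Counts over all genes between the fractions moved by over 1.5 times. In DMSO cells they were 948 without a filter, 283 by DESeq2, 1384 with the replicate block and 0 to 1 with 1 library left out, against 0. In EPZ5676 cells they were 235, 25 and 75 under the same changes, 5 with only the groups compared, 60 without replicate 3 in every group and 0 to 20 with 1 library left out, against 3. The interaction had 37 without a filter, against 0. The cause was not tested. ALDH3A1, with 93 to 447 reads per library, has the widest intervals of the 4.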
